A study of Mus musculus with 48 samples.

Results

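Wild-type bone marrow-derived macrophages (BMDM) polarized toward M1 were compared directly with those polarized toward M2, across every gene with enough counts. The comparison uses 6 of the 48 libraries of the series, 3 labelled M1 and 3 labelled M2, taken by their labels and all treated with vehicle only. All 6 came from wild-type C57BL/6 bone marrow that had been cultured with M-CSF (10 ng/mL) for 6 days. The M1 cells then received lipopolysaccharide (LPS, 100 ng/mL) together with interferon-gamma (IFN-gamma, 50 ng/mL) for 24 hours, and the M2 cells received interleukin-4 (IL-4) and interleukin-13 (IL-13), each at 10 ng/mL, for the same time. Both groups were given DMSO for 4 hours as the vehicle of the compound AP-3-84, so that the AP-3-84 concentration was 0 µM. The series as a whole holds 16 groups of 3 libraries, including unpolarized M0 BMDM, BMDM labelled p53 knockout, and peritoneal macrophages, each with and without AP-3-84. RNA was read at transcript 3′ ends. The labels do not say whether replicate libraries came from separate mice or cultures, so p-values measure the spread between these libraries, which may be technical.

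M1 cells held more mRNA of secreted acute-phase and iron-binding genes, of interferon-stimulated genes and of glycolytic enzymes. M2 cells held more mRNA of alternative activation markers, of MHC class II genes, of lysosomal genes and of many genes of fatty acid uptake and oxidation. Of 11779 genes tested, 3004 differed at a Benjamini-Hochberg adjusted p under 0.05 in edgeR's quasi-likelihood test, which is 25.5% of them. Of these, 1397 were higher in M1 (11.9%) and 1607 were higher in M2 (13.6%). Several genes often used to define LPS and IFN-gamma activation, Nos2, Il6, Il12b and Cxcl10 among them, did not pass the test with all 6 libraries and the filter on low counts.

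LPS is a component of the outer membrane of Gram-negative bacteria that is sensed by the receptor TLR4, whose adaptors MyD88 and TRIF lead to the transcription factors NF-kB and IRF3. IFN-gamma acts through the kinases JAK1 and JAK2, and interferons of both types raise a shared set of antiviral genes. IL-4 and IL-13 share the receptor chain IL-4Rα and act mainly through STAT6, which in macrophages raises genes of tissue repair, lectins and chitinase-like proteins.

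The libraries held 3365693 to 4645148 counts each. Levels are given below as CPM (counts scaled to a fixed library total, with TMM factors), and differences as log2 fold changes of M1 minus M2, so that a positive value means higher in M1. M2 replicate 1 stood apart from the other M2 libraries. It had 507 genes at least 2-fold above both other M2 libraries, against 49 to 138 in the other 5 libraries. Mean chi-square per gene was 26.2 and 32.6 between it and its mates and 9.54 between M2 replicates 2 and 3. Its summed CPM of 8 neutrophil markers was 3950, against 440 to 577 in the other 5 libraries, and none of the 8 markers was at 0 in all 6 libraries. S100a8 and S100a9 had the largest M2 means of the 8, at 959 (SD 1170) and 593 (SD 702) CPM. Ly6g, Elane and Retnlg were too low to be tested, with 4, 3 and 0 counts in M2 replicate 1. Without it 3012 of 12072 genes were called (25.0%), 1428 of them higher in M1 (11.8%) and 1584 higher in M2 (13.1%). Of the 3004 genes called with it, 2568 were called in the same direction without it. M2 replicate 1 lay above both its mates in 73.4% of the genes called higher in M1 without it, and below both in 8.98%. It lay below both in 64.7% of those called higher in M2 and above both in 18.7%. In most of these genes it was thus shifted toward M1. Those genes were called from its mates, so part of the shift may be set by that choice. M2 replicate 1 was the highest M2 library for Arg1, Chil3 and Mrc1 and the lowest for Retnla, Mgl2 and Flt1. Its correlation with the M1 mean was 0.918, against 0.897 and 0.883 for M2 replicates 2 and 3. The part of neutrophil transcripts in the results was not tested. In bulk RNA, fewer cells of a type and less RNA per cell cannot be told apart.

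The macrophage label was checked against its markers. Lyz2 (lysozyme) lay between 20320 and 40300 CPM in the 6 libraries, Csf1r (the M-CSF receptor) between 1461 and 3315 CPM, and Adgre1 (F4/80) between 580.4 and 2746 CPM. Mean CPM in M1 and M2 was 537.1 and 1543 for Cd68, 827.4 and 297.2 for Itgam, and 450.1 and 114.2 for Cd14. Mertk was lower, with means of 43.95 CPM in M1 and 82.36 CPM in M2. Fcgr1 was high only in M1, with means of 373.5 CPM in M1 and 9.767 CPM in M2. Summed markers of B cells, T cells, mast cells or eosinophils, dendritic cells and erythroid cells reached at most 12.7 CPM in any library, and those of fibroblasts 54 CPM. The markers Cd79a, Ms4a1, Cd3e, Cd3g, Cd8a, Cpa3, Epx, Xcr1 and Siglech were at 0 in all 6 libraries.

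Promoters of 10 genes called in the comparison are shown first, to let the letters of a response element be read. These genes were chosen because their promoters hold the motif, so that its presence in them is fixed by the choice. The stretches are the 250 bases before the RefSeq start of each gene on GRCm38.p6, 5′ to 3′ along the gene's own strand. For genes higher in M1, capitals mark matches to GAAANNGAAA, the core of the interferon-stimulated response element that STAT and IRF factors bind, on either strand. Ifit3b (chr19:34607707-34607956, plus strand), Isg15 (chr4:156200819-156201068, minus strand) and Ifit1 (chr19:34640639-34640888, plus strand) are antiviral genes, and Saa3 (chr7:46715677-46715926, minus strand) encodes an acute-phase protein.
Ifit3b: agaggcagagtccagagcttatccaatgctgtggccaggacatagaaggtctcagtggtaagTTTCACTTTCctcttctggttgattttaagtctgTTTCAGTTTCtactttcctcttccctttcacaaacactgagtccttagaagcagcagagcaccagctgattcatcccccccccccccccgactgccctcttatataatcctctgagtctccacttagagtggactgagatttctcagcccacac
Isg15: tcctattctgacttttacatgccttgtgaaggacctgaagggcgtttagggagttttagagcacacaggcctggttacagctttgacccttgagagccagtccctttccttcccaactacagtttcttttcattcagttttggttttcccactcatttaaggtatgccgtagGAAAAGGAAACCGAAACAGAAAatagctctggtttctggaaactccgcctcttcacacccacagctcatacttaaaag
Ifit1: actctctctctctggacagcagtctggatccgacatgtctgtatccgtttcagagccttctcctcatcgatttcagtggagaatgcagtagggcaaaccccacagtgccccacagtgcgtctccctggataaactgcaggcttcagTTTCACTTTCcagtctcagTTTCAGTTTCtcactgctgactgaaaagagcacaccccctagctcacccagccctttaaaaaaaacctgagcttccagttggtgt
Saa3: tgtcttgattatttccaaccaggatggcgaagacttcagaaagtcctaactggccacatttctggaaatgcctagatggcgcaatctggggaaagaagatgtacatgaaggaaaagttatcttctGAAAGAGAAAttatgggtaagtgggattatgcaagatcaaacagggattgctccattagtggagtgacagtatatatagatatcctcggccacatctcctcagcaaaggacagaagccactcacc

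In Isg15, 3 matches overlap in 1 run that begins 78 bases before the start. Ifit3b and Ifit1 each hold 2 matches, and Saa3 holds 1, which begins 125 bases before the start. Of 32851 promoters in the table, 978 (2.98%) hold this motif in the same 250 bases.

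For genes higher in M2, capitals mark matches to TTCNNNNGAA, the spacing that STAT6 favours, which reads the same on both strands. Retnla (chr16:48842359-48842608, plus strand) encodes a resistin-like secreted protein, Itgax (chr7:128129300-128129549, plus strand) the integrin CD11c, Clec7a (chr6:129472780-129473029, minus strand) the beta-glucan receptor dectin-1, Ccl17 (chr8:94810203-94810452, plus strand) a chemokine and Pdcd1lg2 (chr19:29410669-29410918, plus strand) the PD-1 ligand PD-L2. Tmem26 (chr10:68723496-68723745, plus strand) encodes a transmembrane protein of unclear function.
Retnla: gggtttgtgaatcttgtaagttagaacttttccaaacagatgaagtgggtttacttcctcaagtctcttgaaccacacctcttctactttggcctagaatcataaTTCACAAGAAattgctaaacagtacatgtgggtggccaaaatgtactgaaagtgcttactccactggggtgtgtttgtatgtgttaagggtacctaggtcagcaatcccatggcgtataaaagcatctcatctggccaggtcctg
Itgax: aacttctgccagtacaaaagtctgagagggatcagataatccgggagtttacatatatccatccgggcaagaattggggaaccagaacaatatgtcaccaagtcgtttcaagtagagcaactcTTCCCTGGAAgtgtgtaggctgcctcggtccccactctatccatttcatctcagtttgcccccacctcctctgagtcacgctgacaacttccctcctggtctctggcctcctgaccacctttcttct
Tmem26: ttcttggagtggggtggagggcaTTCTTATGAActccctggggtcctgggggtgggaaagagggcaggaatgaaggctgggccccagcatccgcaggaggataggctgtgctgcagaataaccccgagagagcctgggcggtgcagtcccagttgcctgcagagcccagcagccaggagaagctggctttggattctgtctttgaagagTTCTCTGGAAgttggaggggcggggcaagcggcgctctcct
Clec7a: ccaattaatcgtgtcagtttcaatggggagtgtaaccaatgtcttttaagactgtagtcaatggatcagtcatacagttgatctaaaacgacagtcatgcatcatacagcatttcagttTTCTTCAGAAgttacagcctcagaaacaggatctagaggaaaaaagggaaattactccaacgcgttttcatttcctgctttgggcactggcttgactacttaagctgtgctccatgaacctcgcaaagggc
Ccl17: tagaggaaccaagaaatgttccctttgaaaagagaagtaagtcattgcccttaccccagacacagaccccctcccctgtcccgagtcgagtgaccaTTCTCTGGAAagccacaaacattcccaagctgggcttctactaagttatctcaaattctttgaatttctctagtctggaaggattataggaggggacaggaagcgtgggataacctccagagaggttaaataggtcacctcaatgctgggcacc
Pdcd1lg2: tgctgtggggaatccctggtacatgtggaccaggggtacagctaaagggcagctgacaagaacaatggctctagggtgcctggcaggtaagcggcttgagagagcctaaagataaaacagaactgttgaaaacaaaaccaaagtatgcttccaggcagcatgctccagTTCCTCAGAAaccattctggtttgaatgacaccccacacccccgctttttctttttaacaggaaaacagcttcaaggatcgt

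The match in Retnla begins 145 bases before the start and that in Pdcd1lg2 82 bases before it. Tmem26 holds 2 matches. This motif is present in 1923 of the 32851 promoters (5.85%), and it overlaps a match of the interferon motif in 18 promoters. The genes were chosen after their sequences and values had been seen, so the matches describe these promoters and nothing more. TTCNNNNGAA was found in 64 of 1246 promoters of genes called higher in M2, in 55 of 1112 of genes called higher in M1 and in 417 of 8915 of all genes tested. It was in 4 of 18 promoters of the alternative activation list and in 0 of 14 of the IL-4 and IL-13 signalling list. GAAANNGAAA was found in 70 of 1112, 37 of 1246 and 266 of 8915 promoters of genes higher in M1, higher in M2 and tested. A promoter was at hand for 79.6% of the genes called higher in M1 and for 77.5% of those higher in M2, too few for a comparison of these shares.

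Among the genes higher in M1, the largest difference was in U90926 (chr5:92209893-92215408, minus strand, GRCm38), a gene of little known function. U90926 was counted at 958, 1219 and 961 CPM in the M1 libraries and at 6.68, 0.905 and 0.95 CPM in the M2 libraries, and it was at 0 in all 3 M0 libraries. The log2 fold change of U90926 was 8.46 (SE 0.54, adjusted p = 2.94e-11) and 10.08 without M2 replicate 1. Saa3 (chr7:46711998-46715700, minus strand), a serum amyloid A protein of the acute-phase response, stood at 66540, 69370 and 73120 CPM in M1 and at 3421, 201 and 174 CPM in M2. The groups did not overlap, and M2 replicate 1 was far above its mates. The log2 fold change of Saa3 was 5.78 (SE 1.01, adjusted p = 0.000101) and 8.53 without M2 replicate 1 (adjusted p = 7.41e-07). In a fit of the 6 libraries alone the adjusted p of Saa3 was 0.0693.

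Other secreted defence proteins followed the same order. Lcn2, which withholds iron from bacteria by binding siderophores, stood at 2138, 2089 and 1885 CPM in M1 and at 107, 11.2 and 7.92 CPM in M2. Its log2 fold change was 5.58 (SE 0.77, adjusted p = 4.38e-06), and 7.72 without M2 replicate 1. Cfb, the complement factor B of the alternative pathway, differed by 5.49 and Hp, the haemoglobin scavenger haptoglobin, by 4.52 on the log2 scale. Leaving out M2 replicate 1, which stood at 23.7 CPM for Cfb and 16.1 CPM for Hp against 0.95 to 4.43 CPM in its mates, gave 6.98 and 6.85. Of 16 tested genes on the list of secreted acute-phase, iron-binding and antiprotease genes, 9 were higher in M1, 3 were higher in M2 and 4 were not called. One of those higher in M1, Marco, is a surface scavenger receptor and is counted again among the receptors. The list's median log2 fold change was 2.67, against -0.0017 over all genes tested, and 5.17 without M2 replicate 1. The 3 members higher in M2 were Ltf (lactoferrin), Orm1 (orosomucoid) and Serpina3g (a serine protease inhibitor). Ltf, a neutrophil granule protein, stood at 80.7 CPM in M2 replicate 1 and at 9.95 and 6.33 CPM in the other M2 libraries. Without M2 replicate 1, Ltf and Orm1 were no longer called (adjusted p = 0.0839 and 0.0533), while Serpina3g was (log2 fold change -4.60, adjusted p = 3.99e-05).

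Cx3cr1, the receptor of fractalkine, stood at 306, 270.2 and 345 CPM in M1, at 3.06, 10.6 and 8.55 CPM in M2 and at 112, 293 and 325 CPM in M0. The M1 and M0 libraries overlapped, and the 3 M2 libraries lay below all of them. The log2 fold change of Cx3cr1 was 5.39 (SE 0.69, adjusted p = 1.45e-06). Fcgr1, the high-affinity IgG receptor CD64, stood at 355, 355 and 410.4 CPM in M1 and at 20.3, 3.92 and 5.07 CPM in M2, with a log2 fold change of 5.23 (adjusted p = 4.14e-06). Cd300e, an activating receptor of myeloid cells, differed by 6.41, and Trem3, a receptor that signals through DAP12, by 4.59. Klra2, Ly6i and Ctla2b differed by 5.12, 5.02 and 4.47. With M2 replicate 1 left out the values were 6.36 for Fcgr1, 6.27 for Klra2, 5.78 for Ly6i and 5.33 for Trem3.

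**Figure D1:**
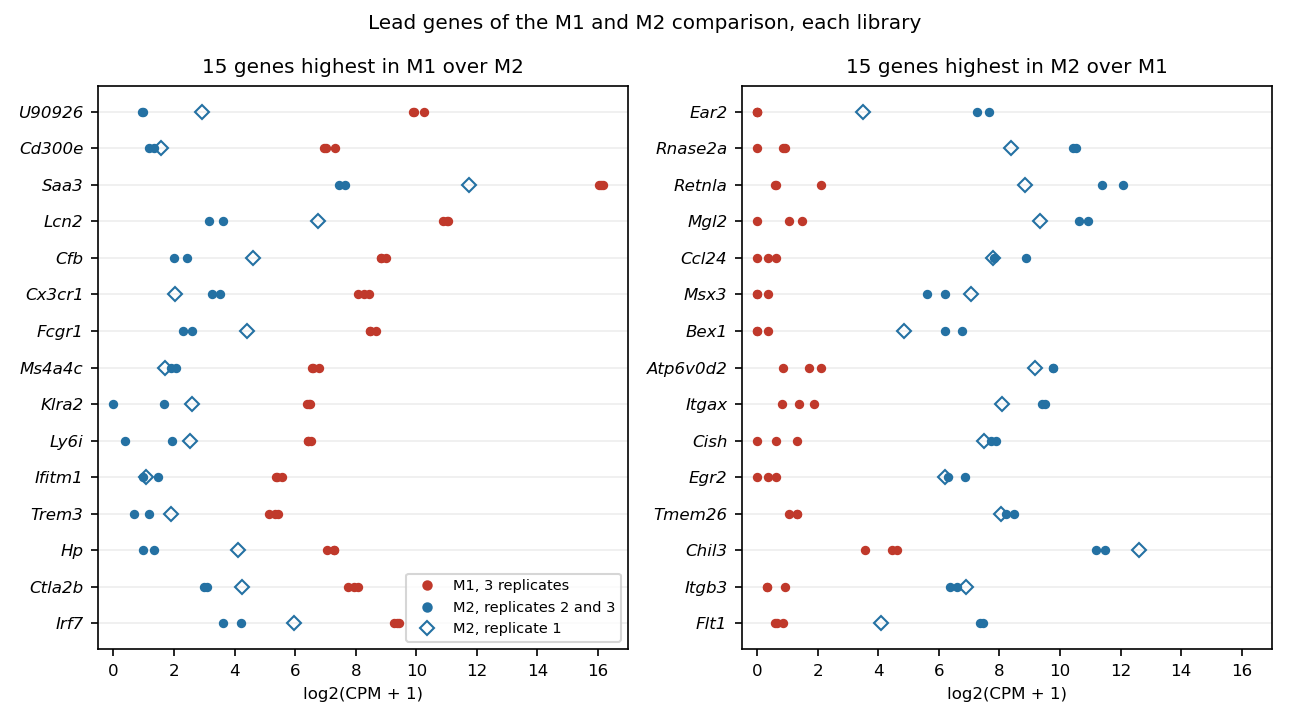
Levels of the 15 genes highest in M1 (left) and the 15 highest in M2 (right) in each library, as log2(CPM + 1) on the horizontal axis, chosen by log2 fold change among called genes with a mean log2 level of 3 or more and no overlap between groups. Red points are the 3 M1 libraries, filled blue points M2 replicates 2 and 3, and open diamonds M2 replicate 1, which sits to the right of its mates for Saa3 and Lcn2 and to the left for Ear2, Retnla and Flt1.

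The genes highest in M2 included many that are known markers of IL-4 activation. Retnla (chr16:48842551-48844461, plus strand) stood at 456, 4299 and 2661 CPM in M2 and at 3.28, 0.530 and 0.504 CPM in M1, with a log2 fold change of -10.79 (SE 1.32, adjusted p = 8.41e-07). M2 replicate 1 was the lowest of the M2 libraries and still far above M1. Mgl2, the galactose-type lectin CD301b, stood at 641, 1577 and 1927 CPM in M2 and at 1.79, 1.06 and 0 CPM in M1, with a log2 fold change of -10.52 (adjusted p = 1.75e-11). Chil3, the chitinase-like protein Ym1, stood at 6183, 2902 and 2338 CPM in M2 and at 23.6, 20.9 and 10.8 CPM in M1. The groups of Chil3 did not overlap, and its log2 fold change was -7.70 (adjusted p = 1.93e-08).

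Arg1 (chr10:24915221-24927484, minus strand), the arginase that turns arginine into ornithine and urea, stood at 2240, 1003 and 1140 CPM in M2 and at 50.1, 51.7 and 40.3 CPM in M1. In M0 it stood at 6.06, 3.58 and 2.05 CPM, below both polarized groups. The log2 fold change of Arg1 was -4.95 (SE 0.56, adjusted p = 2.06e-07), smaller than that of Retnla. Mrc1, the mannose receptor CD206, stood at 1505, 963 and 891 CPM in M2, at 32.9 to 37.6 CPM in M1 and at 229 to 271 CPM in M0, so that M0 lay between the polarized groups. Its log2 fold change was -4.97 (adjusted p = 1.48e-09).

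Several leading M2 genes had almost no counts in M1. Ear2, an eosinophil-associated ribonuclease, had 0 counts in the 3 M1 libraries and 1188 in the M2 libraries, where it stood at 10.3, 201 and 154 CPM. It was at least 437-fold higher in M2, with M1 set at a summed floor of 3 counts, and was not called in the fit of the 6 libraries alone (adjusted p = 0.143). Its near relative Rnase2a differed by -10.85 on the log2 scale, and reads of such close copies may have been shared between them. Ccl24 (eotaxin-2) had 3 counts in M1 and 3063 in M2, a ratio of 1126 (95% counting interval 385 to 5462). Egr2, a transcription factor, had 3 counts in M1 and 889 in M2, a ratio of 327 (95% counting interval 112 to 1588). Msx3, a homeobox gene, had 1 count in M1 and 860 in M2, and Bex1 had 1 and 683. These intervals cover counting error only.

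The 2 smallest adjusted p-values of the comparison belonged to Tmem26 and Cish. Tmem26 stood at 267, 360.1 and 296 CPM in M2 and at 1.49, 1.06 and 1.51 CPM in M1, with a log2 fold change of -7.80 (SE 0.35, adjusted p = 6.54e-17). Cish, a suppressor of cytokine signalling induced by STAT factors, stood at 177, 237 and 209.9 CPM in M2 and at 1.49, 0.530 and 0 CPM in M1, with a log2 fold change of -8.29 (SE 0.44, adjusted p = 4.25e-15). Replicates of both genes varied little, and M2 replicate 1 lay close to its mates. Itgax, which marks many dendritic cells and some macrophages, differed by -8.39, Itgb3 (the beta chain of the vitronectin receptor) by -7.66, Flt1 (a VEGF receptor) by -7.48 and Atp6v0d2 (a subunit of the proton pump) by -8.52.

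**Figure D2:**
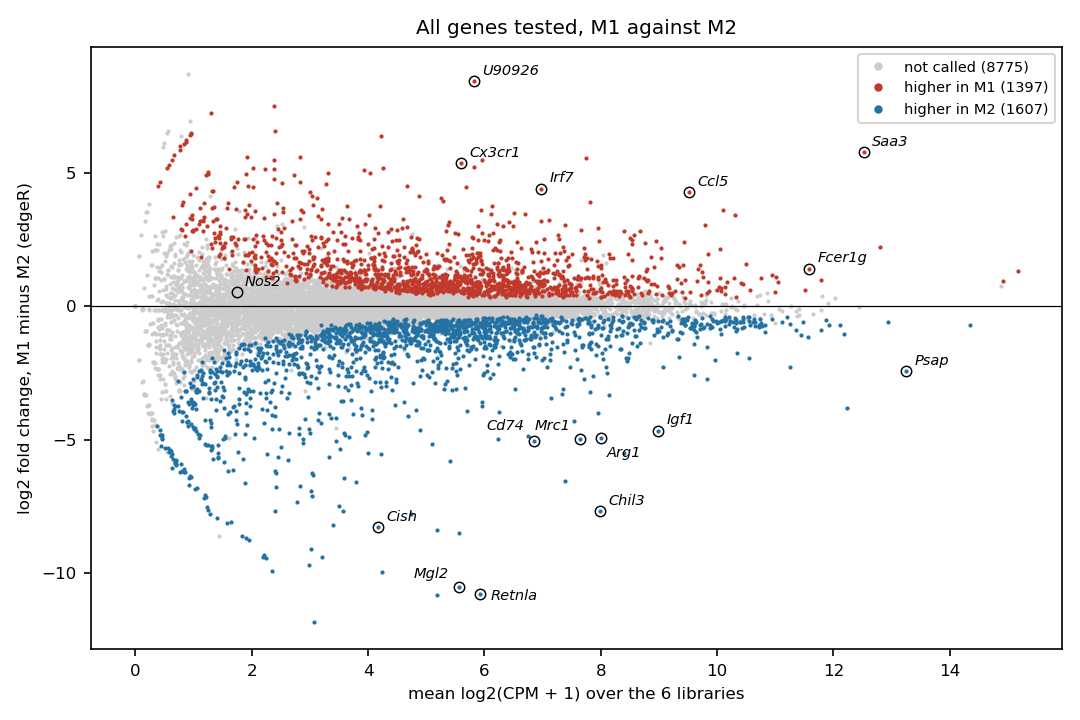
Log2 fold change of M1 minus M2 (vertical axis, edgeR) against the mean log2(CPM + 1) of the 6 libraries (horizontal axis) for all 11779 genes tested, with 1397 called higher in M1 in red, 1607 higher in M2 in blue and 8775 not called in grey. Circled genes are named in the text, and their fitted values run from -10.79 for Retnla to 8.46 for U90926.

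Large differences were more numerous on the M2 side. Among called genes, 281 were higher in M2 and 133 higher in M1 by at least 3 on the log2 scale. With a difference of 1 or more on the log2 scale also required, 1738 genes were called (14.8%), 777 higher in M1 and 961 higher in M2. All 3 libraries of 1 group lay above all 3 of the other in 4879 genes (41.4%), and 2879 of the 3004 called genes were among them. The 10 most counted genes took 22.9% to 23.3% of the counts in M1 and 14.9% to 15.7% in M2.

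The gene lists below were written from general knowledge with earlier results of these data known, so that the choice of members partly sets their counts. Each is set beside 25.5% of genes called and a median log2 fold change of -0.0017 over all genes tested. Of 29 tested alternative activation markers, 26 were higher in M2, 1 was higher in M1 and 2 were not called, with a median of -5.64. With genes that had 0 counts in M1 set at their bound, the median was -5.62. The member higher in M1 was F13a1, a coagulation factor subunit, at 33.1, 34.4 and 35.0 CPM in M1 and 8.35, 6.94 and 10.8 CPM in M2 (log2 fold change 1.98, adjusted p = 0.0133), and it was not called without M2 replicate 2 (adjusted p = 0.0602). Without M2 replicate 1, 25 members were higher in M2 and 1 in M1. Clec7a stood at 1541, 1669 and 1541 CPM in M2 and at 19.97, 16.7 and 13.9 CPM in M1, with a log2 fold change of -6.56. Ccl17 had 1 count in M1 and 994 in M2, a ratio of 1096 (95% counting interval 196 to 43340).

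**Figure D3:**
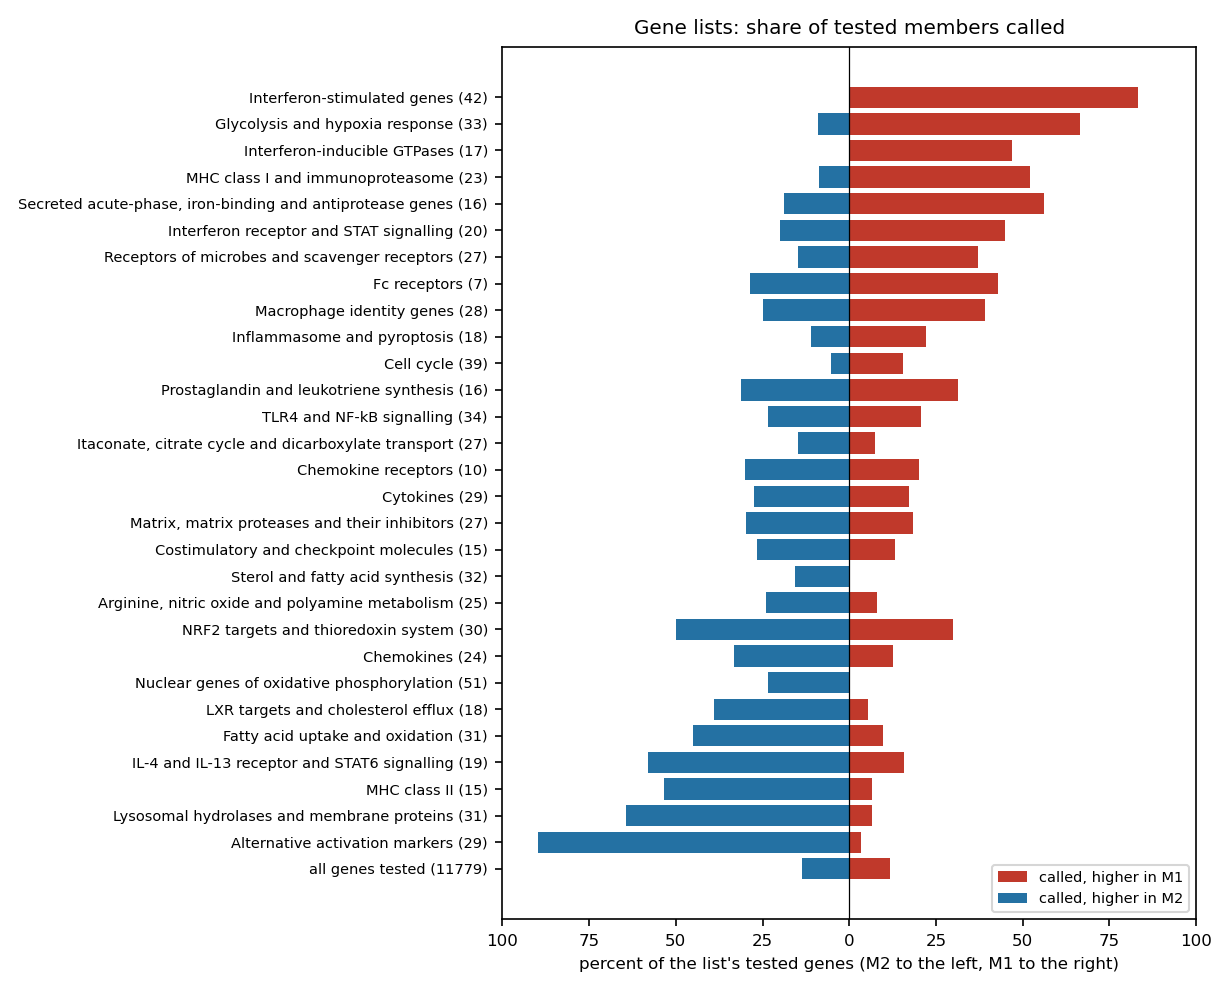
Share of each gene list called higher in M1 (red, to the right) or higher in M2 (blue, to the left), in percent of the list's tested genes, whose number stands in brackets. Interferon-stimulated genes, with 35 of 42 higher in M1, and alternative activation markers, with 26 of 29 higher in M2, lie at the ends, and all genes tested, at 11.9% and 13.6%, are the bottom bar.

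Signalling genes of the IL-4 and IL-13 pathway were called in both directions. Of 19 tested, 11 were higher in M2, 3 were higher in M1 and 5 were not called, and the median log2 fold change was -1.88. Those higher in M2 were mostly genes known as STAT6 targets and feedback genes. Irf4, a transcription factor of IL-4 responses, had 0 counts in M1 and stood at 7.51, 45.2 and 44.0 CPM in M2, at least 116-fold higher. Pparg, the nuclear receptor of fatty acid handling, had 0 counts in M1 and 61 in M2, at least 22.4-fold higher. The 3 members higher in M1 were the receptor chains Il4ra (log2 fold change 1.10) and Il2rg (0.73), and Stat6 itself (0.45, adjusted p = 0.0264). Il4ra stood at 335, 364 and 434 CPM in M1 and at 285, 124 and 119 CPM in M2. Stat6 was not called without M1 replicate 1 (adjusted p = 0.169), M1 replicate 2 (0.0699) or M2 replicate 2 (0.208), and its call was lost under 6 of 12 alternatives in all. In the fit of the 6 libraries alone Il4ra (adjusted p = 0.0662) and Irf4 (0.0501) were not called.

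On the TLR4 and NF-kB signalling list, 7 of 34 genes were higher in M1, 8 were higher in M2 and 19 were not called. The co-receptor Cd14 was higher in M1 (log2 fold change 1.98, and 2.63 without M2 replicate 1), as were the adaptor Myd88 (1.62) and Irak3 (2.76), which dampens TLR signalling. The receptor Tlr4 stood at 17.3, 17.2 and 26.9 CPM in M1 and at 41.2, 61.5 and 49.4 CPM in M2, with a log2 fold change of -1.30 (adjusted p = 0.000116). Tnip3, an inhibitor of NF-kB, was also higher in M2 (-1.07). Nfkbia, the inhibitor induced by NF-kB itself, was at 1241 to 1517 CPM in M1 and 1056 to 1436 CPM in M2 and was not called (adjusted p = 0.586).

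On the interferon receptor and STAT signalling list, 9 of 20 genes were higher in M1, 4 were higher in M2 and 7 were not called. Irf7, the factor that amplifies type I interferon responses, stood at 619, 657 and 687 CPM in M1 and at 61.5, 17.5 and 11.4 CPM in M2, with a log2 fold change of 4.43, and 5.49 without M2 replicate 1. Socs3, a feedback inhibitor of cytokine receptors, was higher in M1 (2.18, and 3.10 without M2 replicate 1), but not called in the fit of the 6 libraries alone (adjusted p = 0.0872). Irf1, a transcription factor that interferons induce, went the other way, at 44.7, 52.5 and 48.3 CPM in M1 and at 105, 190.0 and 181 CPM in M2. The groups of Irf1 did not overlap, and its log2 fold change was -1.71 (adjusted p = 1.04e-05). Socs1, another feedback inhibitor, and Irf2 were higher in M2 as well (-1.57 and -0.92).

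Interferon-stimulated genes formed the most one-sided list on the M1 side. Of 42 tested, 35 were higher in M1, none was higher in M2 and 7 were not called, and the median log2 fold change was 1.92. Without M2 replicate 1 there were 37 higher in M1 and the median was 2.498. Ifitm3, which blocks virus entry at membranes, stood at 4501, 4191 and 5289 CPM in M1 and at 842, 241 and 209 CPM in M2 (log2 fold change 3.44, adjusted p = 5.01e-05). Ifit3b, one of the antiviral proteins that bind foreign RNA, whose promoter is shown above, stood at 26.8, 25.2 and 32.2 CPM in M1 and at 2.5, 0.905 and 0.633 CPM in M2 (log2 fold change 4.31, adjusted p = 7.9e-06). Ms4a4c and Ifitm1 differed by 5.20 and 5.01. The values with M2 replicate 1 left out were 4.37 for Ifitm3 and 5.12 for Ifit3b.

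In several antiviral genes M2 replicate 1 lay well above the other M2 libraries. Isg15, a ubiquitin-like modifier, stood at 272, 261 and 246 CPM in M1 and at 118, 40.7 and 9.82 CPM in M2, so that its M2 libraries spread widely without reaching M1. Its log2 fold change was 2.20 (adjusted p = 0.0114) and 3.34 without M2 replicate 1, and it was not called without M2 replicate 2 (adjusted p = 0.0578) or 3 (adjusted p = 0.0608). Ifit1 showed the same order, with a log2 fold change of 2.44 (adjusted p = 0.00713) and 3.81 without M2 replicate 1. In the fit of the 6 libraries alone neither Isg15 (adjusted p = 0.153) nor Ifit1 (0.137) was called. Rsad2, the antiviral enzyme viperin, stood at 186, 201 and 242 CPM in M1 and at 286, 56.4 and 18.1 CPM in M2. The highest M2 library of Rsad2 lay above all of M1, and it was not called (adjusted p = 0.5), while without M2 replicate 1 it was (log2 fold change 2.48, adjusted p = 0.0321).

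Interferon-inducible GTPases, which attack vacuoles that hold microbes, were higher in M1 or not called. Of 17 tested, 8 were higher in M1, none was higher in M2 and 9 were not called, with a median log2 fold change of 1.06. Irgm2 stood at 37.9, 35.2 and 36.5 CPM in M1 and at 8.63, 5.73 and 1.58 CPM in M2 (log2 fold change 2.75, adjusted p = 9.48e-05), and Gbp6 differed by 2.60 (3.29 without M2 replicate 1). Gbp9 had 46 counts in M1 and 1 in M2, a ratio of 41.7 (95% counting interval 7.12 to 1683). Gbp2, a guanylate-binding protein that IFN-gamma induces, had a log2 fold change of -0.80 and was not called (adjusted p = 0.232).

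The genes by which LPS and IFN-gamma activation is usually recognized were checked one by one. Nos2, the inducible nitric oxide synthase, stood at 3.88, 4.77 and 1.51 CPM in M1 and at 5.01, 1.51 and 0.317 CPM in M2. The groups overlapped, the log2 fold change was 0.53, and the adjusted p was 0.629. Il6 stood at 0.298, 2.39 and 0.755 CPM in M1 and at 4.45, 1.51 and 0 CPM in M2 (adjusted p = 0.602). Il12b, a chain of IL-12 and IL-23, stood at 5.96, 4.77 and 4.78 CPM in M1 and at 9.46, 16.6 and 0.95 CPM in M2 (adjusted p = 0.316). Without M2 replicate 3 Il12b was called higher in M2 (log2 fold change -1.34, adjusted p = 0.0435). Cxcl9, a chemokine that IFN-gamma induces, had 45 counts in M1 and 1 in M2, a ratio of 40.8 (95% counting interval 6.96 to 1647). It was called, but reached only 2.91 to 5.54 CPM in M1. Cxcl10 stood at 17.6, 32.6 and 16.9 CPM in M1 and at 19.8, 6.33 and 1.90 CPM in M2, and was not called (log2 fold change 1.23, adjusted p = 0.238). It differed by 2.41 without M2 replicate 1 (adjusted p = 0.0521), and without the filter on low counts Cxcl10 was called (adjusted p = 1.7e-05). Ciita, the activator of MHC class II genes that IFN-gamma induces in many cells, had 0 counts in M1 and 37 in M2, at least 13.6-fold higher.

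Il1b, Tnf and Acod1 were well counted in both groups. Il1b stood at 372, 545 and 339.9 CPM in M1 and at 240.1, 84.1 and 46.6 CPM in M2, with a log2 fold change of 1.76 that just missed the threshold (adjusted p = 0.0501). Without M2 replicate 1 it was called (2.67, adjusted p = 0.00973), as it was with DESeq2 (adjusted p = 0.0321). Tnf stood at 342, 440 and 272 CPM in M1 and at 291, 199.6 and 108 CPM in M2, so that the groups overlapped, with a log2 fold change of 0.82 (adjusted p = 0.12), and 1.18 without M2 replicate 1 (adjusted p = 0.0426). Acod1, the enzyme that makes itaconate, stood at 953, 1032 and 848 CPM in M1 and at 1582, 436 and 176 CPM in M2. Its highest library was M2 replicate 1, and it was not called (log2 fold change 0.37, adjusted p = 0.671), whereas without that library it was (1.61, adjusted p = 0.0184).

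**Figure D4:**
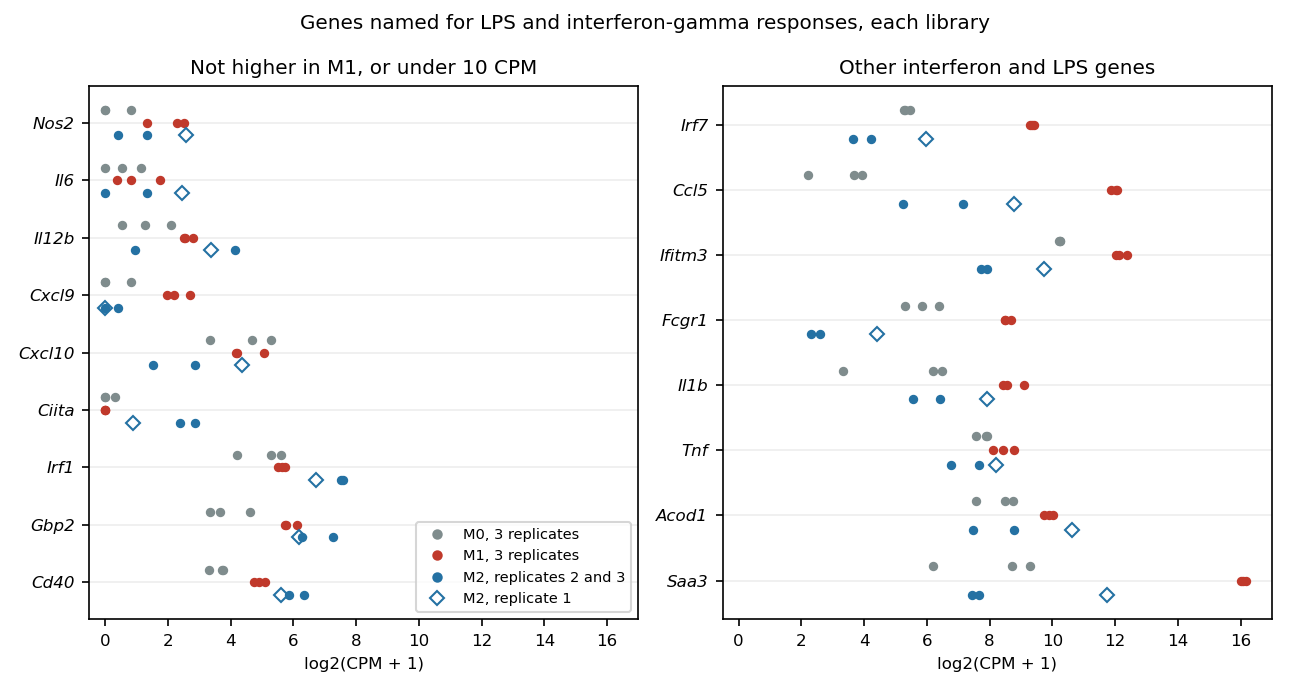
Levels of 17 genes of LPS and interferon responses in each M0, M1 and M2 library, as log2(CPM + 1) on the horizontal axis, with the M0 points in grey, M1 in red, M2 replicates 2 and 3 in blue and M2 replicate 1 as an open diamond. On the left Nos2, Il6, Il12b and Cxcl10 overlap between M1 and M2 and Irf1 lies lower in M1, and on the right Irf7, Ccl5, Ifitm3, Fcgr1 and Saa3 lie higher in M1 than in every M2 library.

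Of 29 tested cytokine genes, 5 were higher in M1, 8 were higher in M2 and 16 were not called. Without M2 replicate 1 these counts were 9 and 7. Il10, an anti-inflammatory cytokine, stood at 19.97, 29.1 and 17.4 CPM in M1 and at 3.90, 1.21 and 0.317 CPM in M2 (log2 fold change 3.55, adjusted p = 0.000383). Ebi3, the chain shared by IL-27 and IL-35, differed by 2.10, and Il18 by 1.64. Igf1, a growth factor that macrophages supply to healing tissue, stood at 2275, 2724 and 2657 CPM in M2, at 103, 81.9 and 117 CPM in M1 and at 604, 587 and 614 CPM in M0. The M0 libraries lay between the polarized groups, and the log2 fold change of Igf1 between M1 and M2 was -4.67 (SE 0.36, adjusted p = 2.2e-10). Hbegf, a ligand of the EGF receptor, and Csf1, the gene of M-CSF, were also higher in M2 (-4.75 and -3.04). With M2 replicate 1 left out Hbegf differed by -3.28 and Il10 by 4.78.

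Counts of called chemokine genes changed with M2 replicate 1. Of 24 tested, 3 were higher in M1 and 8 in M2, and without that library 8 were higher in M1 and 6 in M2, while the list's median log2 fold change went from -0.17 to 0.77. Ccl5 (RANTES) was called higher in M1 either way, at 3771, 4200 and 4224 CPM in M1 and at 442, 139.6 and 37.1 CPM in M2 (log2 fold change 4.30, adjusted p = 4.85e-05, and 5.51 without it). Ccl2, which draws monocytes, had a log2 fold change of 1.65 (adjusted p = 0.247), and 3.74 without M2 replicate 1 (adjusted p = 0.0184). Ccl7 behaved likewise, with 1.93 (adjusted p = 0.215) and 4.28 (adjusted p = 0.0172). Ccl8 stood at 412, 23.8 and 13.6 CPM in M2 and at 1.79, 2.12 and 1.26 CPM in M1, with a log2 fold change of -6.43 that became -3.43 without M2 replicate 1, and it was not called in the fit of the 6 libraries alone (adjusted p = 0.0933). Among chemokine receptors, 2 of 10 were higher in M1 and 3 in M2, the latter including Cxcr4 (-2.99) and Ccr2 (-2.86), the receptor of Ccl2.

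MHC class II genes, which present peptides to helper T cells, were higher in M2. Of 15 tested, 8 were higher in M2, 1 was higher in M1 and 6 were not called, with a median log2 fold change of -1.60. Cd74, the invariant chain, stood at 235, 899 and 1004 CPM in M2 and at 20.9, 17.8 and 26.2 CPM in M1, so that M2 replicate 1 lay nearer to M1 than its mates did. Its log2 fold change was -5.04 (SE 0.73, adjusted p = 1.01e-05). H2-Eb1 and H2-Aa differed by -5.00 and -4.87. The member higher in M1 was March1 (0.88, adjusted p = 0.00658), a ubiquitin ligase that removes MHC class II from the surface. The summed dendritic cell markers were 2.27 to 2.98 CPM in M1 and 6.4 to 12.7 CPM in M2, with Xcr1 and Siglech at 0. Zbtb46, a transcription factor on that list, was itself called higher in M2, at 5.29, 12.1 and 10.8 CPM against 0 to 0.298 CPM in M1 (log2 fold change -5.45, adjusted p = 1.04e-05), and the other tested marker was not called (adjusted p = 0.162). The part of dendritic cell transcripts in this difference was not tested.

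MHC class I and immunoproteasome genes went the other way. Of 23 tested, 12 were higher in M1, 2 were higher in M2 and 9 were not called, with a median log2 fold change of 1.00. H2-T22, a non-classical class I gene, stood at 128, 119 and 100.4 CPM in M1 and at 20.9, 20.5 and 10.1 CPM in M2 (log2 fold change 2.75, adjusted p = 5.98e-08). The peptide transporter subunit Tap2 differed by 1.76 and was not called without M2 replicate 3 (adjusted p = 0.0744). The 2 members higher in M2 were Psmb10, an immunoproteasome subunit (-1.09), and Erap1, a peptidase that trims peptides (-0.83). Of 15 costimulatory and checkpoint genes, 2 were higher in M1 and 4 in M2. Pdcd1lg2, whose promoter is shown above, stood at 15.03, 35.9 and 29.1 CPM in M2 and at 0.596, 0.265 and 0.504 CPM in M1 (log2 fold change -5.78, adjusted p = 2.16e-07), and Cd40 differed by -1.08.

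Receptors that bind microbes were divided between the groups. Of 27 tested, 10 were higher in M1, 4 were higher in M2 and 13 were not called. Marco, a scavenger receptor for bacteria, stood at 4923, 5469 and 5539 CPM in M1 and at 1089, 130.3 and 83.6 CPM in M2 (log2 fold change 3.61, adjusted p = 0.000269), and in the fit of the 6 libraries alone it was not called (adjusted p = 0.105). Fpr1, the receptor of formylated bacterial peptides, differed by 3.20 (adjusted p = 0.136 in that fit) and Tlr3, the receptor of double-stranded RNA, by 1.57. Of 7 Fc receptor genes, 3 were higher in M1 and 2 in M2. Fcer1g, the signalling chain of activating Fc receptors, stood at 4898, 4875 and 5271 CPM in M1 and at 1935, 1679 and 1995 CPM in M2, with a log2 fold change of 1.42 (SE 0.16, adjusted p = 3.23e-08). Fcgr4 was higher in M1 (3.02) and Fcgr3 higher in M2 (-0.98). The values with M2 replicate 1 left out were 5.62 for Marco, 5.48 for Fpr1 and 4.17 for Fcgr4.

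Glycolysis and hypoxia response genes were mostly higher in M1. Of 33 tested, 22 were higher in M1, 3 were higher in M2 and 8 were not called, and the median log2 fold change was 0.97. Pfkfb3, which makes the activator of phosphofructokinase, stood at 138, 139.6 and 148 CPM in M1 and at 41.2, 13 and 16.8 CPM in M2 (log2 fold change 2.58, adjusted p = 1.76e-06). Pfkl, the liver-type phosphofructokinase, differed by 2.14, and the lactate exporter Slc16a3 by 2.05. Pfkp, the platelet-type phosphofructokinase, stood at 61.4, 56.4 and 49.1 CPM in M1 and at 160.0, 178 and 199 CPM in M2, with a log2 fold change of -1.69 (SE 0.18, adjusted p = 1.26e-08). Pfkl and Pfkp, isoenzymes of the same step, lay on opposite sides. Leaving out M2 replicate 1 gave 3.24 for Pfkfb3, 2.73 for Pfkl and 2.67 for Slc16a3.

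Lipid genes were more often higher in M2. On the list of fatty acid uptake and oxidation, 14 of 31 were higher in M2 and 3 in M1, with a median log2 fold change of -0.52. The 3 higher in M1 were the fatty acid transporter Slc27a1 (0.82, not called without M2 replicate 2, adjusted p = 0.062) and the acyl-CoA synthetases Acsl4 (0.93) and Acsl5 (1.08). Lpl, the lipoprotein lipase, stood at 1667, 2454 and 1631 CPM in M2 and at 322, 366 and 285 CPM in M1 (log2 fold change -2.56, adjusted p = 4.81e-07). Fabp4, a fatty acid carrier, differed by -3.13, and Lipa, the lysosomal acid lipase, by -2.28. Of 18 LXR target and cholesterol efflux genes, 7 were higher in M2 and 1 in M1 (7 and 2 without M2 replicate 1), with the cholesterol exporter Abcg1 at -2.61 and Gpnmb at -2.28. Apoe spread widely in M2, at 70.7, 683 and 1253 CPM against 416 to 468 CPM in M1, and was not called (adjusted p = 0.639). Of 32 sterol and fatty acid synthesis genes, 5 were higher in M2 and none in M1, so that 15.6% were called against 25.5% of all genes. Without M2 replicate 1 there were 10 higher in M2. Of the 5, Mvd differed by -1.38 and Hmgcs1 by -1.32, and Hmgcs1 was not called without M2 replicate 3 (adjusted p = 0.0502).

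Nuclear genes of oxidative phosphorylation differed little. Of 51 tested, 12 were higher in M2, none was higher in M1 and 39 were not called, so that 23.5% were called against 25.5% of all genes. The median log2 fold change was -0.29, and -0.38 when libraries were scaled by total counts. Ndufv1, a core subunit of complex I, differed by -0.68 (adjusted p = 0.00141) and Sdha, the catalytic subunit of complex II, by -0.63 (adjusted p = 0.000422). On the list of itaconate, citrate cycle and dicarboxylate transport, 2 of 27 were higher in M1 and 4 in M2. The largest difference there was in Slc13a3, a dicarboxylate transporter, at 626, 706 and 749.7 CPM in M1 and at 216, 18.1 and 14.6 CPM in M2 (log2 fold change 3.06, adjusted p = 0.0134). Slc13a3 was not called in the fit of the 6 libraries alone (adjusted p = 0.158) or without M2 replicate 2 (0.0693) or 3 (0.0701).

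Arginine, nitric oxide and polyamine genes beyond Arg1 showed smaller differences. Of 25 tested, 6 were higher in M2, 2 were higher in M1 and 17 were not called, and with M2 replicate 1 left out 3 were higher in M2 and 2 in M1. The arginine transporter Slc7a2 stood at 607, 406 and 221 CPM in M2 and at 155, 184 and 129 CPM in M1 (log2 fold change -1.40, adjusted p = 0.00914), and was not called without M2 replicate 1 (adjusted p = 0.0689). Arg2, the mitochondrial arginase, differed by -2.29 and was not called without that library either (adjusted p = 0.0545). The third lost was Ass1, argininosuccinate synthase, at 153, 66.1 and 65.6 CPM in M2 and at 54.5 to 60.1 CPM in M1 (log2 fold change -0.74, adjusted p = 0.0456, and 0.591 without it). Ass1 was also not called when any 1 of the 3 M1 libraries was left out (adjusted p = 0.112, 0.078 and 0.0988). The 2 genes higher in M1 were Smox, spermine oxidase (1.13), and Gch1, which supplies the cofactor of nitric oxide synthase (0.63). Gch1 was not called without M1 replicate 2 (adjusted p = 0.0747), M2 replicate 2 (0.0839) or M2 replicate 3 (0.142).

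Lysosomal hydrolases and membrane proteins were higher in M2 in 20 of 31 genes and higher in M1 in 2, with 9 not called and a median log2 fold change of -0.63. Psap, the precursor of the saposins that help degrade sphingolipids, stood at 18700, 28070 and 21440 CPM in M2 and at 4468, 4147 and 4117 CPM in M1. Its log2 fold change was -2.42 (SE 0.26, adjusted p = 2.72e-08), and the groups were far apart. Tfeb, a transcription factor of lysosomal genes, differed by -2.27. Ctsc, the cathepsin that activates serine proteases of granules, was higher in M1, at 875, 885 and 902 CPM against 141, 158 and 143 CPM in M2 (log2 fold change 2.59, adjusted p = 8.73e-10).

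Matrix genes and lipid mediators changed in both directions. Of 27 matrix, matrix protease and inhibitor genes, 5 were higher in M1 and 8 in M2, and without M2 replicate 1 the counts were 6 and 4. Mmp12, the macrophage elastase, stood at 3043, 2380 and 1541 CPM in M2 and at 56.9, 63.9 and 34.5 CPM in M1 (log2 fold change -5.49, adjusted p = 4.43e-06). Timp2, an inhibitor of metalloproteinases, differed by -4.00 and Fn1, fibronectin, by -4.12. On the M1 side were Lox, which crosslinks collagen (2.67), and Thbs1, thrombospondin 1 (2.96), at 3.67 and 3.63 without M2 replicate 1. Of 16 prostaglandin and leukotriene synthesis genes, 5 were higher in each group. Ptges, the inducible prostaglandin E synthase, was higher in M1 (3.48, adjusted p = 3.72e-05, and 0.0876 in the fit of the 6 libraries alone). With M2 replicate 1 left out Ptges differed by 5.55 (adjusted p = 4.47e-10). Ltc4s, the leukotriene C synthase, was higher in M2 (-4.60, adjusted p = 7.49e-07), as was Ptgs1, cyclooxygenase 1 (-1.92).

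Among 28 macrophage identity genes, 11 were higher in M1, 7 were higher in M2 and 10 were not called. Adgre1 and Itgam (CD11b) were higher in M1 (log2 fold change 1.58 and 1.48), and Cd68 was higher in M2 (-1.52). Aif1, an actin-binding protein of macrophages, differed by 2.94, and Trem2, a lipid-sensing receptor, by -1.98. Of 39 cell cycle genes, 6 were higher in M1 and 2 in M2, and these counts became 3 and 4 without M2 replicate 1. The G1 cyclins Ccnd2 and Ccnd3 differed by 2.496 and 2.01, while the proliferation marker Mki67 was at 74.5 to 82.1 CPM in M1 and 82.4 to 137 CPM in M2 and was not called (adjusted p = 0.238).

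NRF2 target and thioredoxin system genes, which counter oxidants, were called in 24 of 30 cases, 9 higher in M1 and 15 higher in M2, and without M2 replicate 1 the counts were 9 and 9. Hmox1, haem oxygenase 1, stood at 773, 785 and 666 CPM in M1 and at 316, 114 and 135 CPM in M2 (log2 fold change 1.98, adjusted p = 1.45e-05). Prdx5, a peroxiredoxin, differed by 2.14. Nqo1, a quinone reductase, and Nfe2l2, which encodes NRF2 itself, were higher in M2 (-2.28 and -1.43). Leaving out M2 replicate 1 gave -1.50 for Nqo1 and 2.57 for Hmox1. Of 18 inflammasome and pyroptosis genes, 4 were higher in M1 and 2 in M2, and 7 and 0 without M2 replicate 1, with Nlrp3 at 1.65 (2.48 without that library), while Casp1 was not called (adjusted p = 0.118).

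The M1 minus M2 difference was also compared between genotypes, since 6 vehicle libraries labelled p53 knockout had the same polarizations. Their genotype field reads wild-type, while their titles and the series design give the knockout. Trp53 itself was at 2.70 to 9.11 CPM in them and at 5.38 to 9.95 CPM in the wild-type libraries, a 3′ read that need not lie in the deleted part. Cdkn1a, a p53 target, was at 55.5 to 252 CPM in the knockout libraries and at 609 to 1115 CPM in the wild-type libraries, with no overlap. The difference itself was called for 338 genes (2.87%), and for 194 when wild-type M2 replicate 1 was left out.

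Among the genes named above, Il12b differed most between genotypes. It stood at 61.0, 34.2 and 64.3 CPM in knockout M1 and at 1.86, 2.48 and 0.496 CPM in knockout M2, so that it was higher in M1 there, with a log2 fold change of 5.00 against -0.81 in the wild type. The difference was 5.81 (SE 0.82, adjusted p = 0.000104) and 5.82 without wild-type M2 replicate 1 (adjusted p = 0.000449). Cish and Tmem26 were higher in M2 in both genotypes, with log2 fold changes of -8.29 and -7.80 in the wild type and of -5.37 and -5.39 in the knockout. These differences of 2.92 and 2.41 were called with wild-type M2 replicate 1 (adjusted p = 0.0144 and 0.00361) and without it (adjusted p = 0.0126 and 0.00493). Their size depends on few counts, since wild-type M1 held 7 of Cish and 15 of Tmem26 in all. Knockout M1 held more of both, with 3.85, 3.54 and 2.455 CPM of Cish and 14.3, 10.6 and 8.26 CPM of Tmem26. In knockout M2, Tmem26 reached 516, 465 and 404 CPM, above every wild-type M2 library. Cish reached 190.5, 134.9 and 81.1 CPM there, overlapping wild-type M2. The differences of Saa3, Retnla, Arg1 and Nos2 between genotypes were not called (adjusted p = 0.229, 0.774, 0.802 and 0.454).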

How the data were processed

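RNA of 48 mouse macrophage libraries was read with a 3′ kit (QuantSeq FWD). The deposited table holds whole-number counts per Ensembl gene and library, made by the authors with Bowtie2, RSEM and DESeq2 named in the submitters' processing notes, without versions or order, so the counts may be rounded estimates and genes with near-identical copies (Ear2 and Rnase2a, Chil3 and Chil4, Gbp, Ifit and H2 genes) are uncertain. No genome build or read strand is given in the sources used here; coordinates are those of GENCODE M21 (GRCm38), matched by gene ID. Gene IDs without a symbol, 193 in all, held 0.0242% of the counts of the 6 libraries.

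Counts of all 36 bone marrow-derived libraries were tested in R 4.3.3 with edgeR 4.0.16 (quasi-likelihood, filterByExpr by group, TMM factors, robust dispersion), with 1 mean for each of 12 groups and no block. Of 51789 genes, 11779 passed the filter, and the biological coefficient of variation was 0.225. The contrasts were M1 minus M2 in the wild type and the knockout minus wild-type difference of it, two-sided, adjusted over all genes tested at 0.05. Totals of 3365693 to 4645148 counts limit precision for genes below a few CPM. Ratios against 1 to 3 counts have exact 95% binomial intervals. The steps were tested on simulated counts.

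Named genes are the 15 with the largest difference on each side (called, mean log2 CPM of at least 3, no overlap), 14 polarization genes, and up to 4 called members per list and direction, with members that were not called as examples, apart from an item that is not reported here; Isg15, Ifit1, Zbtb46, Ass1, Slc27a1, Acsl4, Acsl5 and the p53 checks were chosen after their values were seen. Members and lists were chosen with earlier results of these data known. Promoters are RefSeq's (GRCm38.p6). Alternatives were other scalings, no filter, DESeq2 1.42.0, only the libraries compared, a fold threshold, a replicate block and leaving out each library.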

Additional observations from a re-analysis of the deposited data

Results flagged for a closer look

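In 15 of the 150 genes named above for the comparison, the M1 minus M2 difference was called as unequal between the p53 knockout and the wild type by edgeR's test of the difference itself. Over all genes tested 338 were called (2.87%), and 80 when only the libraries compared were fitted. The genes named as checks against the knockout were chosen after their values were seen. Many of the named genes were chosen by their wild-type difference. The same values enter this test, so 15 of 150 cannot be set against 2.87%. The values below are log2, knockout minus wild type, so that a positive value means that M1 lay relatively higher in the knockout. They were 2.92 for Cish, 2.41 for Tmem26, 5.81 for Il12b, 1.32 for Cd40, 0.912 for Pfkp, 1.59 for Timp2 and 1.27 for Nfe2l2 among positive differences that were called with and without wild-type M2 replicate 1. They were -2.68 for Irgm2 and -1.35 for Ctsc among negative ones called either way. Without that library the differences of Ms4a4c (-3.01), Itgb3 (3.67), Tnf (2.01), Il6 (5.47), H2-T22 (-1.50) and Orm1 (5.23) were no longer called, with adjusted p of 0.111, 0.0802, 0.11, 0.181, 0.0609 and 0.15.

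Il6 stood at 8.79, 37.2 and 19.2 CPM in knockout M1 and at 0.531, 0.450 and 1.49 CPM in knockout M2, whereas its wild-type M1 libraries did not exceed 2.39 CPM. Timp2 was higher in M2 in both genotypes, with log2 fold changes of -4.00 in the wild type and -2.41 in the knockout. Irgm2 differed by 2.75 in the wild type and by 0.08 in the knockout, where its M1 libraries stood at 8.52, 18.2 and 13.2 CPM and its M2 libraries at 6.10, 6.08 and 25.8 CPM.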

How the results depend on the processing

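The count of called genes stayed within 1.5 times of 3004 under both other scalings, without the filter and with DESeq2 (2997 to 3135). It also did so with only the 6 libraries compared (2709) and when any library was left out (2339 to 3012). Where a difference of 1 or more on the log2 scale was also required it was 1738, 777 higher in M1 and 961 higher in M2. Fitted alone without M2 replicate 1, an alternative chosen after seeing the data, the 5 libraries gave 3650. Scaling by total counts put 37.5% of the calls on the M1 side, against 46.5% with TMM. The count of unequal differences between genotypes moved from 338 to 936 without the filter, 589 with DESeq2, 80 with only the libraries compared and 118 to 409 when a library was left out, and the cause was not tested.

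Of 133 called genes named in the text, 110 were called in the same direction under every alternative, 17 were not called with only the 6 libraries compared and 13 were not called without some library. Without M2 replicate 1 the fold moved by over 1.5 times away from equality in 32 of them and toward it in 6. Those not called with only the 6 libraries compared include Ifit1 (adjusted p = 0.137), Isg15 (0.153), Gch1 (0.137), Ltf (0.0809) and Orm1 (0.116), beside those given in the report. Of 17 named genes that were not called in the comparison itself, 13 were called under some alternative. Among them were Cxcl10 (adjusted p = 1.7e-05) and Gbp2 (0.00115) without the filter. Direction changed for Il6 without M2 replicate 1 (-1.86 to 0.57 when a library was left out), and for Acod1 (-0.10 to 1.61) and Apoe (-1.14 to 0.22) without M2 replicate 3.

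Whether replicate numbers pair the libraries is not known. The deviations of same-numbered M1 and M2 libraries correlated at 0.0121, 0.0352 and 0.184, and those of differently numbered ones at -0.131 to 0.09. With 3 libraries a group these values cannot decide it, so the replicate block is not read as a paired analysis. That block gave 2916 calls and 267 unequal differences. Depth leaves genes of a few CPM, such as Nos2 and Il6, with wide errors. Promoter motif counts with another fold threshold or another window were not run because under 80% of these genes had a promoter in the table.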
